A study of Mus musculus with 6 samples.

Results

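The snoRNA host genes Gas5, Snhg1, Snhg3, Snhg4, Snhg5, Snhg6, Snhg8 and Snhg12 were followed through the erythroid differentiation of MEL cells, a transformed erythroleukemia line of the mouse whose cells resemble early erythroid precursors. The 8 genes were found by mapping the RefSeq accessions of the count files to gene symbols, which named 23896 genes, and each had 1 transcript in the files. All 8 passed the filter on low counts, beside 12381 genes with a tested transcript. The cultures were sampled before DMSO (day 0) and after 2 and 4 days in 2% DMSO, which induces hemoglobin synthesis, with 2 replicate libraries a day and 6 libraries in all. All cultures were grown in suspension in the same serum-supplemented medium, and no culture kept for 2 or 4 days without DMSO was among the samples, so days in culture and days in DMSO cannot be told apart. Nothing in the sources used here says whether same-numbered replicates of different days shared a culture. The p-values set each change against the spread between replicate libraries, estimated over all days together and partly shared across transcripts.

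Small nucleolar RNAs (snoRNAs) guide the chemical modification of ribosomal RNA, box C/D snoRNAs directing ribose methylation and box H/ACA snoRNAs directing pseudouridylation. In vertebrates most of them are not transcribed from promoters of their own but are cut from the introns of host genes after splicing. In the host genes described here the introns carry the conserved product, whereas the spliced exons have little coding capacity, are often bound by ribosomes and are known to be short-lived because nonsense-mediated decay removes them. Gas5 was named for its accumulation in growth-arrested cells, and it and other hosts are known to start with a terminal oligopyrimidine tract, the sequence that couples translation of ribosomal protein mRNAs to growth.

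A pair of sequence sets shows what these loci encode. The first are guide RNAs from the introns of the members, read from GENCODE transcripts on GRCm38 and written 5′ to 3′ as DNA, with the letters TGATGA of box C and the last CTGA, box D, in capitals. Box C binds Snu13 and box D lies near the rRNA-pairing stretch, and the letters are a description of the match, which 24% of 1507 GENCODE snoRNA transcripts and 18 of the 29 entries taken from the introns or exons of 7 members held on the strand of the RNA. Those of Snhg4 are not among the 29, and Snord80 and Snora16a have 2 transcripts each there. Snord47 lies in Gas5 (chr1:161038082-161038158, plus strand), Snord50a in Snhg5 (chr9:88521529-88521600, minus strand), Snord87 in Snhg6 (chr1:9942463-9942549, minus strand) and Snord99 in Snhg12 (chr4:132310691-132310764, plus strand).
Snord47: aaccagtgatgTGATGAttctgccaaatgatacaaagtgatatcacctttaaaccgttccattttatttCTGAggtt
Snord50a: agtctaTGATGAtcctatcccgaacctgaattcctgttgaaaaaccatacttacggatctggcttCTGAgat
Snord87: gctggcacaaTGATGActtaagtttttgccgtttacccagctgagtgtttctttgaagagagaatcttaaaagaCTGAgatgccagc
Snord99: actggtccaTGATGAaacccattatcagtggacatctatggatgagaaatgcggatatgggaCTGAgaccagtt

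The second set are the transcription starts, shown because oligopyrimidine starts are what these genes are known for. Each line holds 20 bases before and 30 bases from an annotated start in the RefSeq promoter table (GRCm38.p6). Capitals mark the longest unbroken stretch of C and T of 5 or more bases, counted from the first C of a run within 10 bases of the start. A run that opens with T was entered at that C, as in the windows of Snhg8, Snhg12 and Snhg5. The windows lie at chr1:161035146-161035195 (Gas5, plus strand, the downstream of its 2 starts), chr3:123508307-123508356 (Snhg8, minus), chr4:132308658-132308707 (Snhg12, plus), chr4:132353657-132353706 (Snhg3, minus) and chr9:88522868-88522917 (Snhg5, minus).
Gas5: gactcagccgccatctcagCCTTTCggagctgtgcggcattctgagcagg
Snhg8: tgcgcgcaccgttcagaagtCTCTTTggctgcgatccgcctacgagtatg
Snhg12: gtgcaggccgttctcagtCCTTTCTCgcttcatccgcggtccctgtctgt
Snhg3: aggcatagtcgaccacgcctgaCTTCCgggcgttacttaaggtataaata
Snhg5: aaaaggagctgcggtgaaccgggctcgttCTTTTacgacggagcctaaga

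A run of at least 8 such bases, counted from a C within 10 bases of the start, was found at 1 of the 6 members in the table, Snhg12. Counted by start, it was found at 1 of the 7 starts of these members and at 8.11% of all 32851 starts. At 5 bases or more it was found at 5 of the 6 members, at 5 of their 7 starts and at 30.7% of all starts. A run counted here need not begin at the start itself, and that of Snhg5 begins at base 10. Snhg1 and the upstream Gas5 start had no run of 5 bases that begins with C near the start. The Snhg1 window does hold a longer run of C and T just after the start. It begins with T, and the part from its first C is shorter than 5 bases, so it was not counted. Snhg4 and Snhg6 had no entry.

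The loci are small. Gas5 spans 3939 bases (chr1:161034601-161038539, plus strand) and holds 9 annotated snoRNA or small RNA entries, Snhg1 spans 2840 bases on chromosome 19 with 8, and Snhg12 spans 2347 bases on chromosome 4 with 4. Snhg3 (chr4:132351933-132353686, minus strand), Snhg4 and Snhg5 hold 2 each, and Snhg6 and Snhg8 hold 1 each. The GENCODE transcripts linked to the RefSeq transcripts of Gas5 and Snhg8 keep intronic sequence in an exon. The counts of these 2 genes could therefore include reads of unspliced or snoRNA sequence. For Snhg3, 71.5% of the 31-base words of its transcript also occur in Gm17300, a GENCODE noncoding transcript on the opposite strand. The library kit kept strand, but whether the counting used it is not given in the sources used here, so reads of that pair might not be told apart. Snhg4 shares 17.9% of its words with Gm28285, which overlaps its exons on the same strand, so strand could not separate those reads. The transcripts of Snhg1 and Snhg12 shared no such word with another gene.

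The depth was 35294930 to 53899476 counts on transcripts per library, and a further 50.53 to 58.36% of the counted reads lay in no feature. TMM factors were 0.921 to 1.071. The erythroid markers Gata1, Klf1, Tal1, Hba-a1, Hbb-bs, Alas2, Slc4a1 and Epor summed to between 899.99 and 958.58 CPM (counts scaled to library size) before DMSO. After 2 days their sum was 4104 to 4937 CPM, and by day 4 it was 17172 to 19279 CPM. The sums of 6 myeloid and 4 lymphoid markers stayed at or under 2.6 and 0.172 CPM, whereas 3 mast cell markers, which summed to between 4.68 and 5.36 CPM before DMSO, had at most 0.0221 CPM by day 4. The 3 megakaryocyte markers summed to 268 to 271 CPM before DMSO, 211 to 233 CPM at day 2 and 543 to 617 CPM by day 4. Most of that sum was Itga2b, with 8514 and 11269 counts at day 0 and 19162 and 27437 at day 4. Pf4 went the other way, from 2341 and 2117 counts to 368 and 404, and Gp9 had at most 97 counts in any library. The part of these shifts in the results on host genes was not tested, and in bulk RNA fewer cells of a type and less RNA per cell cannot be told apart.

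Per length of the matched GENCODE transcript, Snhg1 was the most abundant member before DMSO, with 110 ± 8.75 CPM per kb (SD, n = 2), followed by Gas5 with 81.9 ± 8.39 CPM per kb. Snhg5 (60.5 ± 5.64 CPM per kb) and Snhg8 (60.4 ± 12.8) came next with overlapping libraries, then Snhg3 (41.1 ± 0.906) and Snhg4 (33.0 ± 5.20). Snhg12 (17.8 ± 2.59 CPM per kb) and Snhg6 (14.3 ± 1.51) were lowest. The order changed with differentiation. At day 4 Gas5 led with 61.3 ± 1.60 CPM per kb, and Snhg1 had 32.7 ± 4.31, while Snhg4, with 9.58 ± 1.37 CPM per kb, and Snhg3, with 10.1 ± 3.04, were lowest and overlapped each other. Snhg6 moved from the lowest level at day 0 to the fifth at day 2, with 30.9 ± 3.51 CPM per kb, where its libraries overlapped those of Snhg5. The matched lengths range from 400 bases for Snhg6 to 2556 for Gas5, and the order depends on them. The matched Gas5 transcript keeps intronic sequence, and the place of Gas5 below Snhg1 at day 0 rests on that length. In CPM, without lengths, Gas5 was the highest member on each day, with means of 209, 222 and 157. Snhg1 had 66.7, 31.8 and 19.8 CPM.

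**Figure D1:**
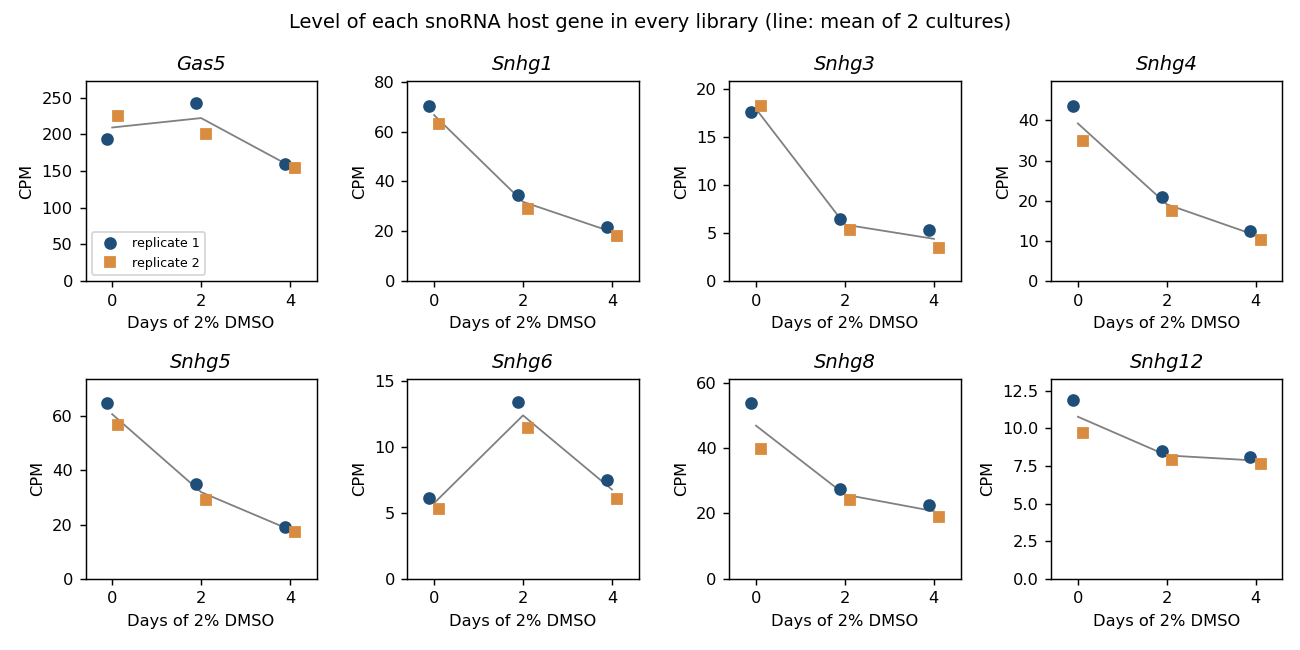
Level of each host gene in CPM, library-scaled counts (vertical axes starting at 0 and scaled per gene) against days of 2% DMSO. Circles and squares are replicates 1 and 2, and the line joins the means of the 2 cultures. The 6 genes Snhg1, Snhg3, Snhg4, Snhg5, Snhg8 and Snhg12 are lower at day 2 and at day 4 than before DMSO, Snhg6 is highest at day 2, and Gas5 is lower only at day 4.

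The first question was how the host genes changed in the first 2 days of DMSO. Of the 8 members 7 were called. Snhg1, Snhg3, Snhg4, Snhg5, Snhg8 and Snhg12, 6 of 8, were lower, against 31.5% of all tested genes called lower, and 1 was higher, against 31% called higher (edgeR quasi-likelihood test, Benjamini-Hochberg adjusted p below 0.05). The median log2 fold change of the members was -0.89, beside 0.01 for all genes.

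Snhg3, the host of the U17 snoRNAs Snora73a and Snora73b that act in 18S rRNA processing, had the deepest early fall. Its level was 17.7 and 18.2 CPM in the day 0 libraries and 6.47 and 5.31 CPM at day 2. The days did not overlap, and the level at day 2 was 3.05-fold lower, a log2 fold change of -1.61 ± 0.19 (SE, edgeR, adjusted p = 3.39e-05). The 2 libraries of day 4 had 5.35 and 3.47 CPM, and overlapped those of day 2. The second step, -0.43 ± 0.20, was not called (edgeR, adjusted p = 0.132). It rests on the libraries of day 4, being -0.76 without replicate 1 (edgeR, adjusted p = 0.024) and -0.14 without replicate 2 (edgeR, adjusted p = 0.691), and it was called with no filter on low counts (-0.43, edgeR, adjusted p = 0.0415). Without replicate 1 of day 2 it was -0.28. Over the 4 days Snhg3 fell by 2.04 on the log2 scale, the largest fall among the members and 4.10-fold (edgeR, adjusted p = 3.96e-06).

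Snhg1, Snhg4 and Snhg5 fell at each step. Snhg1, first described as the U22 host gene, carries guides for rRNA methylation in nearly every intron. It stood at 70.4 and 62.9 CPM at day 0, 34.7 and 29.0 at day 2 and 21.6 and 17.9 at day 4. No 2 of these days overlapped, and the log2 changes were -1.07 ± 0.14 for the first step and -0.69 ± 0.14 for the second (edgeR, adjusted p = 5.63e-05 and 0.00425). From day 0 to day 4 Snhg1 was 3.38-fold lower (edgeR, adjusted p = 9.43e-07).

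Snhg5, whose introns hold both copies of the U50 snoRNA, had 64.8 and 56.8 CPM before DMSO, 34.96 and 29.0 at day 2 and 19.1 and 17.1 at day 4. Its steps were nearly equal in size, with log2 changes of -0.93 ± 0.13 and -0.82 ± 0.13 (edgeR, adjusted p = 0.00012 and 0.0015). Snhg4, the host of Snora74a on chromosome 18, went from 43.6 and 34.9 CPM to 20.9 and 17.4 and then to 12.6 and 10.3. Its log2 changes were -1.04 ± 0.16 and -0.75 ± 0.16 (edgeR, adjusted p = 0.000175 and 0.00579). At day 4 the levels of Snhg4 and Snhg5 were 3.45-fold and 3.36-fold under those of day 0, and neither gene's libraries overlapped between days.

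Of the 2 steps, only the first was called for Snhg8 and Snhg12. Snhg8, a short gene around the pseudouridylation guide Snora24, had 53.9 and 39.8 CPM at day 0, 27.5 and 24.0 at day 2 and 22.5 and 19.0 at day 4. It was 1.82-fold lower at day 2 (log2 -0.86 ± 0.16, edgeR, adjusted p = 0.000704). The libraries of days 2 and 4 did not overlap either, but the second step, -0.32 ± 0.16, was not called (edgeR, adjusted p = 0.156). That step was called in a fit of only days 2 and 4 (-0.32, edgeR, adjusted p = 0.0305). Snhg12, which carries 3 box H/ACA guides and 1 box C/D guide, had the smallest early fall, from 11.9 and 9.67 CPM to 8.50 and 7.92, then 8.09 and 7.64 at day 4. Its first step was -0.39 ± 0.15 (edgeR, adjusted p = 0.0395) and its second -0.06 ± 0.15 (edgeR, adjusted p = 0.786, 95% interval of the difference -0.40 to 0.27). The fall of Snhg12 was no longer called with library sizes taken from total counts alone, where the first step was -0.20 (edgeR, adjusted p = 0.289). It was also lost without replicate 1 of day 0 (-0.24) or either library of day 2 (-0.44 and -0.34, edgeR, adjusted p = 0.182, 0.106 and 0.207). Over the 4 days Snhg12 fell by 0.45 (edgeR, adjusted p = 0.0184), a call lost without replicate 1 of day 0 or replicate 2 of day 4 (-0.31 and -0.42, edgeR, adjusted p = 0.0863 and 0.0874).

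Snhg6 went the other way. Its 2 libraries had 6.15 and 5.30 CPM before DMSO, 13.4 and 11.4 at day 2 and 7.45 and 6.05 at day 4, from 251 to 559 counts a library. Both libraries of day 2 stood above every library of days 0 and 4, which overlapped each other. The rise was 2.16-fold (log2 1.11 ± 0.17, edgeR, adjusted p = 0.000166), and the fall that followed was 1.83-fold (-0.88 ± 0.16, edgeR, adjusted p = 0.0031). Without replicate 1 of day 2 the fall was -0.76 and not called (edgeR, adjusted p = 0.0619). Days 0 and 4 differed by 0.24 ± 0.17 on the log2 scale, with a 95% interval from -0.14 to 0.61, and this was not called (edgeR, adjusted p = 0.226). The 31-base words of Snhg6 shared with Mcmdc2, a gene on the opposite strand, were 8.38%, and Mcmdc2 itself had at most 9 counts in any library.

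Gas5, with 5763 to 11143 counts a library, had 194 and 224 CPM at day 0, 243 and 201 CPM at day 2 and 160 and 154 CPM at day 4. Days 0 and 2 overlapped, and the difference of 0.09 ± 0.13 on the log2 scale was not called (edgeR, adjusted p = 0.576, 95% interval -0.20 to 0.37). Both libraries of day 4 lay below all 4 earlier ones. Gas5 was 1.42-fold lower at day 4 than at day 2 (log2 -0.50 ± 0.13, edgeR, adjusted p = 0.0132) and 1.34-fold lower than at day 0 (-0.42 ± 0.13, edgeR, adjusted p = 0.012). With total-count library sizes the second of these was -0.30 (edgeR, adjusted p = 0.0509), and without replicate 2 of day 4 it was -0.39 (edgeR, adjusted p = 0.0699). The first was lost without replicate 1 of day 2 (-0.36) or either library of day 4 (-0.53 and -0.48, edgeR, adjusted p = 0.193, 0.0543 and 0.102).

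From day 2 to day 4 the members called were Gas5, Snhg1, Snhg4, Snhg5 and Snhg6, 5 of 8 and all of them lower, against 16.2% of all genes called lower and 14% called higher. The median of the members was -0.60, beside -0.01 for all genes. The estimates of all 8 lay below 0. Fewer members were called without replicate 1 of day 2 or without replicate 2 of day 4, fits that leave that day 1 library. The share of all genes called in those fits is not given here. The median of the members was -0.46 in the first of them and -0.52 in the second. Snhg1 and Snhg4 kept changes of -0.56 and -0.61 in either case. From day 0 to day 4, 7 of 8 members were lower, against 36.4% of all genes, and 0 were higher, against 35.5%, with a median of -1.46 beside -0.02. The count of higher members was 0 at an unadjusted p below 0.05 too, and 0 in DESeq2. Snhg1, Snhg4 and Snhg5 were called lower at both steps, as were 9.05% of all genes, and Snhg6 was the 1 member called higher at day 2 and then lower, as were 2.18% of all genes.

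**Figure D2:**
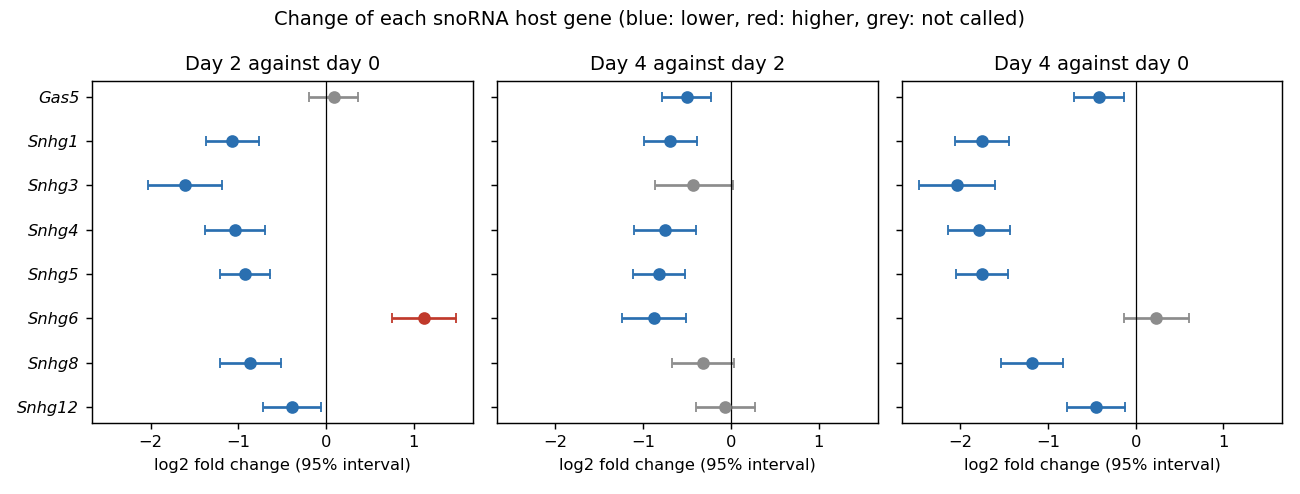
Log2 fold change of each host gene with its 95% interval (horizontal axis) in the 3 comparisons, from the edgeR fit over all 6 libraries; blue was called lower, red higher and grey was not called. Snhg6 lies at 1.11 in the first panel and -0.88 in the second, and 7 genes lie below 0 in the third.

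Whether the steps differed was tested directly, as the second step minus the first. This contrast was called for 2 of 8 members, beside 30% of all genes, a count that moved with 1 library left out. For Snhg6 it was -1.99 ± 0.28 (edgeR, adjusted p = 0.000647), and for Snhg3 it was 1.19 ± 0.34, since its fall was steeper in the first step (edgeR, adjusted p = 0.0248). Gas5, whose estimate of -0.59 ± 0.22 had the sign of a later fall, missed the threshold (edgeR, adjusted p = 0.0634), though not with total-count library sizes (-0.87, edgeR, adjusted p = 0.00947), with no filter (edgeR, adjusted p = 0.0251) or without either library of day 0 (-0.49 and -0.69, edgeR, adjusted p = 0.0423 and 0.00824), and was -0.30 without replicate 1 of day 2. For Snhg1, Snhg4, Snhg5, Snhg8 and Snhg12 the estimates ran from 0.10 to 0.55 and were not called, except that Snhg8 was called without replicate 2 of day 0 (0.75, edgeR, adjusted p = 0.00858). The Snhg3 call was lost with total-count library sizes (0.91, edgeR, adjusted p = 0.0624) and without replicate 1 or replicate 2 of day 2 or replicate 1 of day 4 (1.48, 0.91 and 0.84, edgeR, adjusted p = 0.103, 0.254 and 0.0667).

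Some members share DNA or a promoter region with coding genes. The start of Gas5 lies 263 bases from that of Zbtb37, a zinc finger gene on the other strand, and the 2 genes overlap by 264 bases. Zbtb37 had 8.21 and 7.98 CPM at day 0, 8.62 and 8.14 at day 2 and 8.89 and 12.0 at day 4, and its difference of 0.37 ± 0.16 from day 0 to day 4 was not called (edgeR, adjusted p = 0.0599). It was called without replicate 1 of day 4 (0.57, edgeR, adjusted p = 0.0128) and with total-count library sizes (0.48, edgeR, adjusted p = 0.017), and it was 0.13 without replicate 2 of day 4 (edgeR, adjusted p = 0.538).

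Slc3a2, the heavy chain of the CD98 amino acid transporter, starts 118 bases from Snhg1 and is transcribed away from it. Its level was 269 and 266 CPM at day 0, 172 and 182 at day 2 and 138 and 119 at day 4. It fell with Snhg1 at both steps but less deeply, by 1.06 on the log2 scale from day 0 to day 4 (± 0.12, edgeR, adjusted p = 9.22e-06), where Snhg1 fell by 1.76. The difference between these 2 genes was not tested. Mcmdc2, which overlaps Snhg6, had 26 counts in all and was not tested.

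Rcc1, the exchange factor for the GTPase Ran, shares 28 exonic bases with Snhg3 on the same strand and was looked up after the values of Snhg3 had been seen. It had 113 and 106 CPM at day 0, 44.4 and 46.4 at day 2 and 25.8 and 22.4 at day 4. The 3 days did not overlap, and Rcc1 fell by 2.19 on the log2 scale over 4 days (± 0.11, edgeR, adjusted p = 6.15e-08), where Snhg3 fell by 2.04.

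The files also list 9 of the intronic snoRNAs, each with a mean of at least 10 counts. Mature snoRNAs have no poly(A) tail and most are lost in poly(A)-selected libraries, so counts here can come from unspliced host RNA as well as from snoRNAs, and they are given without a test. Snora74a had 65 and 132 counts at day 0, 84 and 90 at day 2 and 97 and 180 at day 4, which is 3.65 and 7.63, 9.64 and 10.5, and 21.4 and 38.8 counts per 100 counts on Snhg4. The 3 days did not overlap on this ratio, while Snhg4 itself fell.

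Snora16a had 8.87 and 27.7 counts per 100 counts on Snhg12 at day 0, 22.3 and 38.3 at day 2 and 38.4 and 83.5 at day 4. Snora44, further downstream in Snhg12, had 19.4 and 31.5, 33.8 and 40.6, and 45.5 and 69.4. Their day 4 libraries lay above both day 0 libraries, whereas Snord99, also in Snhg12, had 22.7 and 31.9 counts per 100 host counts at day 0 and 25.0 and 26.9 at day 4, which overlapped. Snora61, the fourth guide of Snhg12, had 39.0 and 74.2 per 100 at day 0 and 66.1 and 108 at day 4, and overlapped too. The mean level of Snora16a itself was 1.87 ± 1.15 CPM (SD) at day 0 and 4.74 ± 2.32 at day 4. That of Snora44 was 2.67 ± 0.522 and 4.49 ± 1.14 CPM, and that of Snora61 5.90 ± 1.80 and 6.81 ± 2.06. Snord99 itself was lower at day 4, with 2.89 ± 0.273 CPM at day 0 and 2.04 ± 0.0229 at day 4.

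Snord22 had 4.25 and 13.6 counts per 100 counts on Snhg1 at day 0, 19.1 in both libraries at day 2 and 17.9 and 31.6 at day 4. The mean level of Snord22 itself was 5.78 ± 3.94 CPM (SD) at day 0 and 4.77 ± 1.26 at day 4, while Snhg1 fell. Snora24 went from 6.82 and 8.04 per 100 counts on Snhg8 to 8.88 and 12.1 at day 4, without overlap. The level of Snora24 itself was lower at day 4, with means of 3.44 ± 0.335 CPM at day 0 and 2.15 ± 0.214 at day 4, and Snhg8 fell too. Snora24 lies within the exon of the GENCODE transcript of Snhg8, so its reads may enter both parts of this ratio. Snord47 stayed between 0.777 and 1.36 per 100 counts on Gas5 in all 6 libraries. Snord87 had 7 and 28 counts at day 0, so its ratio to Snhg6 of 2.79 and 10.6 per 100 at day 0 and 5.58 and 13.1 at day 4 is imprecise (exact Poisson 95% interval of the lower count, 2.81 to 14.4, counting error only). Replicate 2 had the higher ratio of the 2 day 0 libraries for all 9 snoRNAs, and likewise at day 4.

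**Figure D3:**
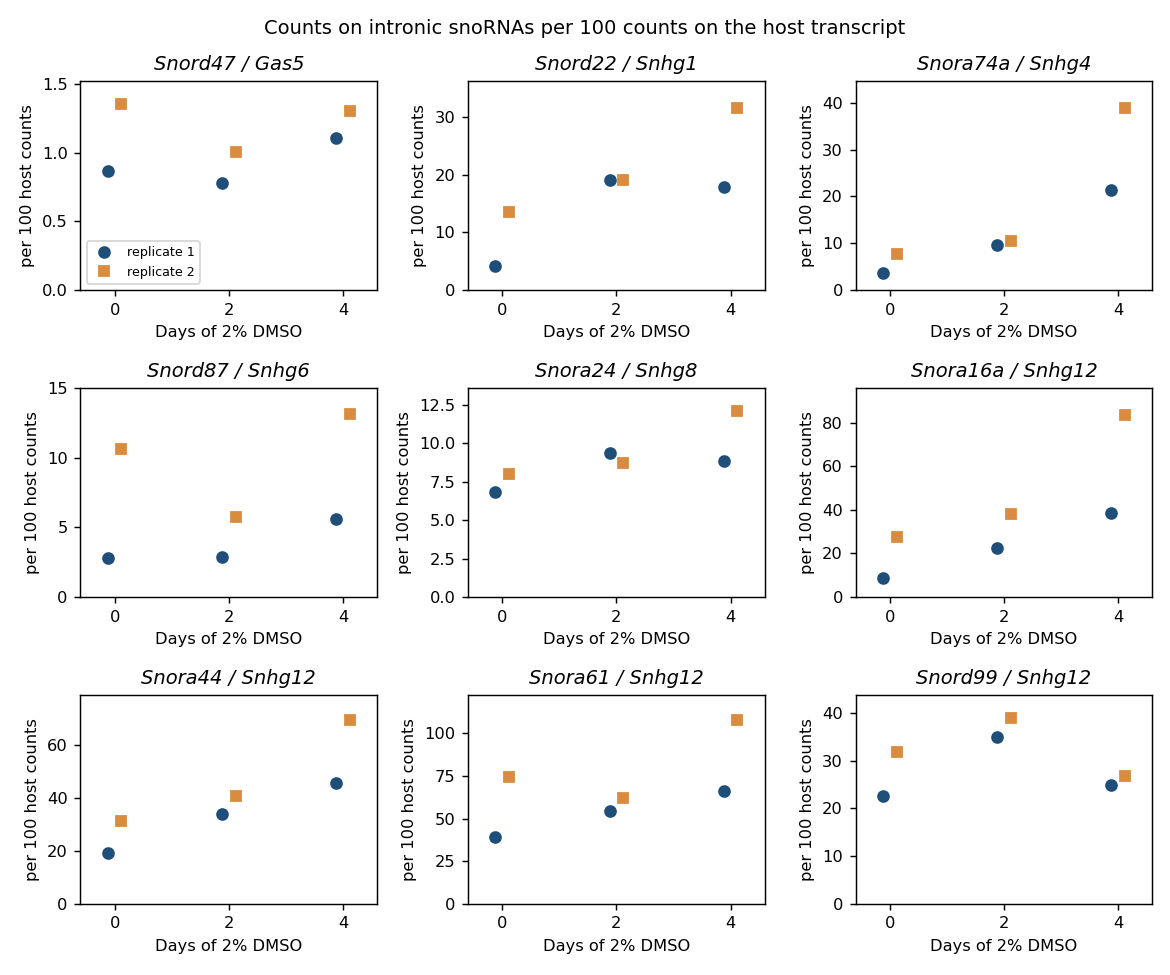
Counts on each intronic snoRNA per 100 counts on its host transcript (vertical axes starting at 0, scaled per snoRNA) against days of 2% DMSO; circles are replicate 1 and squares replicate 2. The ratio of Snora74a rises from 3.65 and 7.63 to 21.4 and 38.8, and that of Snord47 shows no such change, from 0.871 and 1.36 to 1.11 and 1.31.

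Related lists were also set beside the members, namely other noncoding hosts, protein-coding hosts, the proteins that package snoRNAs, and the decay factors that act on host transcripts. Of 15 other noncoding host symbols, 9 were tested, and Snhg9, Snhg11, Snhg14 and Snhg18 had 27 counts or fewer over the 6 libraries. No counted transcript was named Zfas1 or Snhg29. A gene can be listed under another name, so the 15 symbols need not be 15 separate genes. From day 0 to day 4, 4 of the 9 were lower, a share near the 36.4% of all genes, and all 9 estimates lay below 0, with a median log2 fold change of -0.37. Snhg15 had the largest fall, from a mean of 11.2 CPM to 5.47 and 3.43, and was called at both steps and over all (-1.71 ± 0.19, edgeR, adjusted p = 1.25e-05). Snhg20, at -0.14 ± 0.17 (edgeR, adjusted p = 0.48), and Snhg7, at -0.14 ± 0.15 (edgeR, adjusted p = 0.399), had the smallest differences, and that of Snhg20 ran from -0.37, called without replicate 1 of day 0, to 0.12 without replicate 2 of day 0. 2410006H16Rik rose from 84.6 to 122 CPM by day 2 (0.53 ± 0.14, edgeR, adjusted p = 0.00618) and fell to 71.1 CPM at day 4 (-0.78 ± 0.14, edgeR, adjusted p = 0.00231), the same order of calls as Snhg6; it is named here after its values were seen.

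Of 43 protein-coding host genes, most of them for ribosomal proteins, translation factors and nucleolar proteins, 28 were lower at day 4 than at day 0 and 4 higher, against 36.4% and 35.5% of all genes, with a median of -0.49. Npm1 and Ncl, the abundant nucleolar proteins nucleophosmin and nucleolin, fell by 1.88 and 1.84 on the log2 scale over 4 days and were called at each step. Wdr43, a factor of the small-subunit processome, fell by 1.63 and Rpl3, a protein of the large ribosomal subunit, by 1.14, also at each step. Rpsa, a protein of the small ribosomal subunit, had the largest fall, -2.32 ± 0.54 (edgeR, adjusted p = 0.00231), and a wide error. This value rests on 1 library, since it was -0.66 without replicate 2 of day 0, a smaller fall than those of Npm1 and Ncl without that library (-1.75 and -1.47), and -3.08 without replicate 1 of day 0. Tpt1, the translationally controlled tumor protein, rose at each step and by 1.02 ± 0.10 over all (edgeR, adjusted p = 5.74e-06). Rpsa, Npm1, Rpl3 and Tpt1 have processed pseudogenes that can share their reads, and their levels are uncertain.

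All 18 tested proteins and assembly factors of snoRNA particles were lower at day 4 than at day 0, where 36.4% of all genes were, with changes from -2.79 to -0.48 and a median of -1.18. In the first step 16 of 18 were lower, against 31.5% of all genes, and in the second 11 of 18, against 16.2%. Fbl, the methyltransferase of box C/D particles, went from a mean of 62.1 CPM to 20.2 and 13.3 (-2.22 ± 0.12 over 4 days, edgeR, adjusted p = 7.22e-08). Its partners Nop58, Nop56 and Snu13 fell by 1.66, 1.18 and 1.17 on the log2 scale, and were called at each step. Dkc1, the pseudouridine synthase of box H/ACA particles, fell by 1.098 and Gar1, another core protein, by 1.83, again at each step.

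The assembly factors were lower as well. Ruvbl1, an ATPase of the R2TP chaperone complex, went from 65.8 to 19.8 and 15.2 CPM, a change of -2.11 ± 0.13 (edgeR, adjusted p = 1.41e-07). Shq1, which chaperones dyskerin, fell by 1.46 and Nufip1, which helps assemble box C/D particles, by 0.93, both at each step. Nolc1, a nucleolar phosphoprotein that binds both kinds of particle, had the largest fall of the list, from 591 to 129 and 85.4 CPM, which is -2.79 ± 0.26 (edgeR, adjusted p = 2.81e-06). Nop10 had the smallest, -0.48 ± 0.13 (edgeR, adjusted p = 0.00664), which was not called without replicate 2 of day 4 (-0.39, edgeR, adjusted p = 0.0728). Nop56, Nop58 and Dkc1 are also protein-coding hosts and are counted in both lists.

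Of 14 tested nonsense-mediated decay factors, 7 were lower and 1 higher in the first step, with a median of -0.32, against 31.5% and 31% of all genes. From day 0 to day 4, 5 were lower, close to the 36.4% of all genes, and 2 higher, under the 35.5% of all genes, with a median of -0.16. In the second step edgeR called 1 of the 14, Magoh, which was lower. Of all genes, 16.2% were called lower and 14% higher in that step. Magoh, a core protein of the exon junction complex, fell from 48.5 to 24.9 and 19.0 CPM (-1.35 ± 0.12 over 4 days, edgeR, adjusted p = 2.2e-06). Smg6, the endonuclease of the pathway, rose from 45.7 to 62.4 and 67.6 CPM (0.56 ± 0.11 over 4 days, edgeR, adjusted p = 0.000553).

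**Figure D4:**
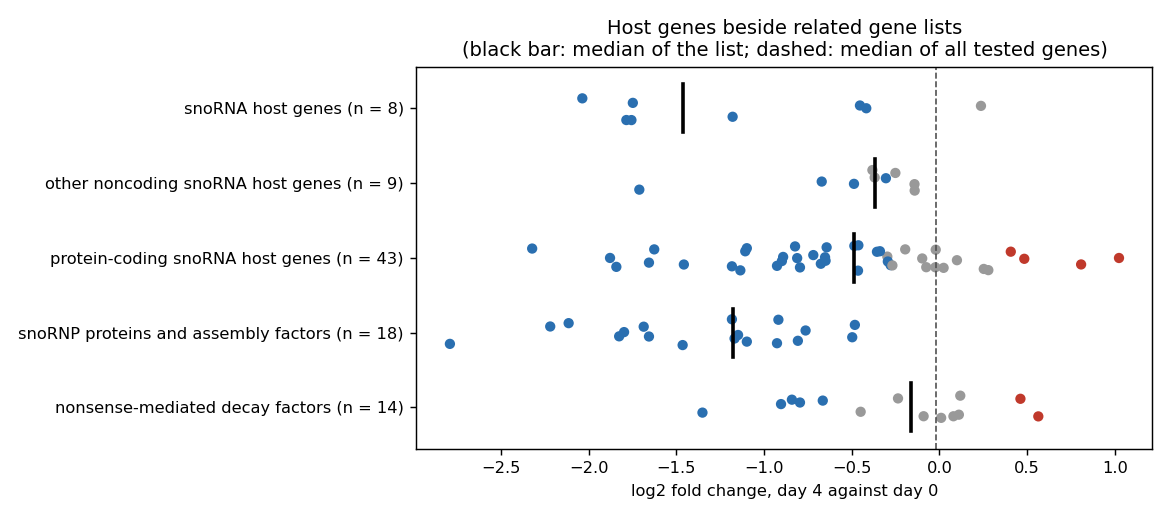
Log2 fold change from day 0 to day 4 (horizontal axis) of each tested gene of 5 lists, with blue for called lower, red for called higher and grey for not called; the black bar is the median of a list and the dashed line that of all genes, -0.02. The medians are -1.46 for the 8 host genes, -0.37 for other noncoding hosts, -0.49 for protein-coding hosts, -1.18 for the snoRNA particle list and -0.16 for the decay factors.

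The genes whose profile was nearest to the mean centred profile of the 8 members, measured as the root mean square distance of log2 CPM over the 6 libraries among 10305 candidate genes, were Pdcd2 (0.0299), Tsr1 (0.0367), Nup54 (0.0498), Wdr36 (0.0516) and Snx5 (0.0554). Pdcd2, which binds a small-subunit ribosomal protein, had means of 43.6, 30.3 and 20.2 CPM at days 0, 2 and 4. Tsr1, a maturation factor of the small ribosomal subunit, had 102, 69.8 and 45.6 CPM. The mean profile mixes the falling members with Snhg6 and Gas5, and follows none of the members alone.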

How the data were processed

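MEL cell mRNA was sequenced by the authors as strand-specific, poly(A)-selected libraries. Raw read counts per RefSeq transcript on mm10 were deposited, 1 file a library, without normalization or pooling; cutadapt, TopHat, HTSeq and DESeq2 are named in the submitters' processing notes. Use of strand in counting is not given in the sources used here. The share of reads in no feature was left out of the tests. Accessions were named through a RefSeq table of GRCm38 (32195 of 32654) and GENCODE (191 more). The transcript with the highest mean count stood for a gene.

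edgeR 4.0.16 (R 4.3.3) was fitted to the deposited counts of all 6 libraries with TMM factors and filterByExpr by day (18351 transcripts kept), a mean per day, and quasi-likelihood tests. An adjusted p below 0.05 (Benjamini-Hochberg over all transcripts kept) was a call, in 3 comparisons between days and 1 between steps. CPM use TMM-scaled library sizes. The code was tested on simulated data. DESeq2 1.42.0, other scalings and filters, a replicate block and leaving out libraries were alternatives. The genes named are the 8 members; from each list those called in all 3 comparisons or with the largest rise or fall; the neighbours, of which 1 is not reported here; intronic snoRNAs with a mean of at least 10 counts; and the 5 nearest profiles. The snoRNA host genes and the lists were chosen with earlier results of these data known.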

Additional observations from a re-analysis of the deposited data

How the results depend on the processing

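With 2 libraries a day, single libraries decided several calls. Host genes called from day 2 to day 4 numbered 5, against 16.2% of all genes called lower and 14% called higher. Those whose steps differed numbered 2, against 30% of all genes. Both counts moved when 1 library was left out, which leaves 1 library for a day. The share of all genes called in such fits is not given here. Gas5 from day 0 to day 2 changed sign without replicate 1 of day 0 (-0.016) or of day 2, and ranged from -0.058 to 0.221 over libraries left out. The contrast of the steps of Snhg5 changed sign with total-count library sizes (-0.176) and without replicate 2 of day 2, and ranged from -0.161 to 0.380. Snhg20 from day 0 to day 4, in a check added after seeing the data, changed sign without replicate 2 of day 0 or replicate 1 of day 4 (0.039), with a range from -0.370 to 0.117. These 3 results missed the threshold with all libraries. Total counts moved the median of all genes to 0.207, -0.088 and 0.098 for day 2 against 0, 4 against 2 and 4 against 0. From day 0 to day 2 they left 3 of 9 tested other noncoding hosts called in place of 5, and 1 of 3 tested neighbours in place of 2. Of all genes, 31.5% were called lower and 31% higher in that step of the main fit, and the shares with total counts are not given here. Total counts also ended the calls of Gas5 and Snhg12 from day 0 to day 4 (-0.30 and -0.34). The pyrimidine run was found at 30.7% of starts at 5 bases and 3.66% at 10. The causes were not tested. Adding the replicate block to the fit called 7, 5 and 7 host genes and 2 contrasts of steps, as without it. Of all 18351 transcripts, 11564, 5578 and 13246 were called with the block and 11639, 5684 and 13268 without it. The differences in log2 CPM between replicates 2 and 1 of a day were only weakly correlated between days, over 18351 transcripts. These correlations were 0.0316 for days 0 and 2, 0.0451 for days 0 and 4 and 0.0791 for days 2 and 4. Such correlations include counting noise and cannot settle whether same-numbered replicates shared a culture. The main fit did not pair libraries by replicate number. Over all results and alternatives 533 kept direction and side of the threshold, 22 lost and 13 gained a call. Choosing another transcript gave no value, since each member had 1.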

Other observations

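The 2 cultures of a day differed in the same direction for nearly all host genes. Replicate 1 had the higher log2 CPM for 6 of 8 members at day 0, 8 of 8 at day 2 and 8 of 8 at day 4, with median differences of 0.20, 0.26 and 0.26, whereas 53.1, 47.5 and 49.9% of all tested genes were higher in replicate 1. The intronic snoRNAs went the other way, with 8, 6 and 9 of 9 lower in replicate 1 and median differences of -0.72, -0.09 and -0.54. These values were looked at after the data were seen and were not tested.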
